A study of Homo sapiens with 16 samples.

Results

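The 9 genes described here encode the immunoproteasome and its partners in peptide presentation by MHC class I: the catalytic subunits PSMB8, PSMB9 and PSMB10, the activator subunits PSME1 and PSME2, the peptide transporter subunits TAP1 and TAP2, and the class I chains B2M and HLA-B. They were taken by symbol from the table of scaled expression values, which listed 22916 genes, and all 9 were found there. RNA was sequenced from HCT116 cells, an established line from a human colon cancer, in 4 groups of 4 libraries, 16 in all. The cells were either gene-edited to carry a truncated Rpn10 (the proteasomal ubiquitin receptor encoded by PSMD4) without its ubiquitin interacting motif, called truncation here, or unedited, called WT. Each genotype was reverse transfected with Lipofectamine RNAiMAX for 48 hours at 50 nM with either a mix of 4 siRNAs against OTUD5, a deubiquitinase (knockdown), or a scrambled siRNA (scramble). The groups were therefore truncation knockdown, truncation scramble, WT knockdown and WT scramble, and all 16 libraries came from transfected cells grown in McCoy 5A medium. How many edited clones were used is not given in the sources used here, so effects of the truncation and of clonal origin cannot be told apart. No other siRNA against OTUD5 was used in these libraries, so effects of lower OTUD5 and other effects of the mix cannot be told apart either. In the 4 truncation knockdown libraries the title reads scramble, whereas the library name and the treatment read OTUD5 siRNA, and the library name and treatment were followed.

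The proteasome cuts cytosolic proteins into peptides, some of which become ligands of MHC class I molecules. In cells exposed to interferon gamma, PSMB8, PSMB9 and PSMB10 replace the constitutive catalytic subunits PSMB5, PSMB6 and PSMB7 in newly assembled particles, and PSME1 and PSME2 form the PA28 activator that caps them. The TAP1 and TAP2 heterodimer carries peptides into the endoplasmic reticulum, where they are loaded onto a heavy chain such as HLA-B paired with B2M, the invariant light chain. Many of these genes respond to interferon through IRF and STAT sites in their promoters, and the class I genes also to NF-kB and NLRC5.

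The reference promoters of 6 of these genes, TAP1 and PSMB9 with their divergent starts, TAP2, the PA28 pair and HLA-B, are shown because the changes described next fell on genes with and without such elements. Each is the 250 bases before the annotated start, 5′ to 3′ on the gene's strand, from RefSeq on GRCh38.p14, and not the sequence of this cell line. Capitals mark the matches listed below them.
PSMB9: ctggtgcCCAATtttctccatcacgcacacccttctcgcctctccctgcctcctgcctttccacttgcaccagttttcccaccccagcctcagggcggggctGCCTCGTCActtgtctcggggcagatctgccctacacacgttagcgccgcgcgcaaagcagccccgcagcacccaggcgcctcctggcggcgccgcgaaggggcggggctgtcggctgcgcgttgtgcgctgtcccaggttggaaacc
TAP1: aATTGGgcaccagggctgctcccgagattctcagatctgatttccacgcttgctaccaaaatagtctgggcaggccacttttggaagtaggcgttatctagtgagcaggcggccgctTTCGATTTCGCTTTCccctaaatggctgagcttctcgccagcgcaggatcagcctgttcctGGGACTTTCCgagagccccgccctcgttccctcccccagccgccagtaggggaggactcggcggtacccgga
TAP2: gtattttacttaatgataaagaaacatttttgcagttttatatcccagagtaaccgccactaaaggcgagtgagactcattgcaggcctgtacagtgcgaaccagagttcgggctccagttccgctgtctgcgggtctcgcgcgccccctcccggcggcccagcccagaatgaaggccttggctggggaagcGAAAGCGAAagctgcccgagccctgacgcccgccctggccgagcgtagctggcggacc
PSME1: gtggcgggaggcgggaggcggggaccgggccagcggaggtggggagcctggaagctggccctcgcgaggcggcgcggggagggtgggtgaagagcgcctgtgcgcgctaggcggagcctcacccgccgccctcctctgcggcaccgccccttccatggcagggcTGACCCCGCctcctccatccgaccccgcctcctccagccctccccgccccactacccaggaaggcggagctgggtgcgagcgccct
PSME2: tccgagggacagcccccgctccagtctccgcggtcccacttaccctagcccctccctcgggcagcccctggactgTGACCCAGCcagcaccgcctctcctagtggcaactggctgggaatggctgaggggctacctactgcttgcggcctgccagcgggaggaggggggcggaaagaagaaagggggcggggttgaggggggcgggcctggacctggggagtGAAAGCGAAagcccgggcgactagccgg
HLA-B: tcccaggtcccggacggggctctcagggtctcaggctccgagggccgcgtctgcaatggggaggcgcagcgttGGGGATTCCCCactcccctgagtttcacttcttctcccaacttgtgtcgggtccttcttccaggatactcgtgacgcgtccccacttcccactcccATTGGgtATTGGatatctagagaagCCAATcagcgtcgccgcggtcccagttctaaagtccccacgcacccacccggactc
The windows lie at chr6:32853942-32854191 on the plus strand for PSMB9, at chr6:32853705-32853954 on the minus strand for TAP1 and at chr6:32838740-32838989 on the minus strand for TAP2. Those of the PA28 pair lie at chr14:24135944-24136193 on the plus strand for PSME1 and at chr14:24146611-24146860 on the minus strand for PSME2, and that of HLA-B at chr6:31357180-31357429 on the minus strand. The windows of PSMB9 and TAP1 overlap at their far ends, and the CCAAT box there is the same one. Both strands were searched for 6 motifs, and capitals may join overlapping matches. The interferon-stimulated response core GAAANNGAA occurred in 6.88% of 35116 such windows genome-wide, TTCNNNGAA (the GAS element) in 6.57%, the kB element in 9.96%, TGACGT (the CRE core) in 7.1%, CCAAT in 32% and the antioxidant response core TGACNNNGC in 10.9%. GAAAGCGAA, a match to the interferon-stimulated core, stood 28 bases before the start of PSME2, 58 before that of TAP2 and 21 before that of PSMB10. TAP1 held 2 overlapping matches to that core, at 133 and 127 bases, and a kB match at 72 bases. The window of a second TAP1 start, not shown, held a GAS element at 189 bases. PSMB9 had a CCAAT box and an antioxidant core, PSME1 and PSME2 an antioxidant core each, at 86 and 175 bases, and HLA-B 2 overlapping kB matches and 3 CCAAT boxes. B2M held 2 interferon-stimulated cores, a kB match and a CCAAT box. Windows were available for both PSMB8 starts, which held a CRE core and a GAS element. A match is a description of the letters and not of binding.

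The labels were checked first. OTUD5 stood at 19.4 to 22.5 CPM (TMM-scaled read counts relative to the library total) in truncation knockdown libraries and 90.3 to 95.9 in truncation scramble libraries. In WT cells it stood at 17.4 to 22.1 CPM in knockdown libraries and 83.7 to 90.9 in scramble libraries, and edgeR's log2 fold change was -2.16 ± 0.07 in truncation and -2.13 ± 0.07 in WT cells. Values after ± are standard errors of a log2 fold change unless given as SD. PSMD4, whose edit is not visible in gene counts, averaged 325 ± 16.3, 199.97 ± 4.86, 264 ± 23.1 and 236 ± 13.4 CPM (SD, n = 4 each) in truncation knockdown, truncation scramble, WT knockdown and WT scramble cells. The libraries held 28777244 to 29645663 counts. Of 10 epithelial markers, EPCAM, CDH1, KRT8, KRT18, KRT19, CDX2 and CLDN7 had at least 546 counts in every library, whereas KRT20 reached at most 58, VIL1 16 and CDX1 2. WT scramble replicate 4 stood apart in leukocyte transcripts: PTPRC, which marks leukocytes, had 326 counts there and 1 to 25 in the other 15 libraries, and the summed CPM of 4 pan-leukocyte markers was 32 there and 2.13 to 8.3 elsewhere. Of the catalytic members, PSMB8 had 12 counts in that library and 1 to 7 in the others. PSMB9 had 216 counts there, within 190 to 241 in its group, and PSMB10 had 31, within 25 to 31. The part of leukocyte transcripts in these counts was not tested. The summed CPM of 6 myeloid markers was 9.75 there and 1.04 to 3.63 elsewhere, with CD68 at 0 counts. WT knockdown replicate 2 differed most from the other replicates of its group, with chi-square per degree of freedom of 16.5 to 20.8. WT knockdown replicate 3 had counts for 32264 genes, against 25626 to 27765 in the other 15 libraries.

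**Figure D1:**
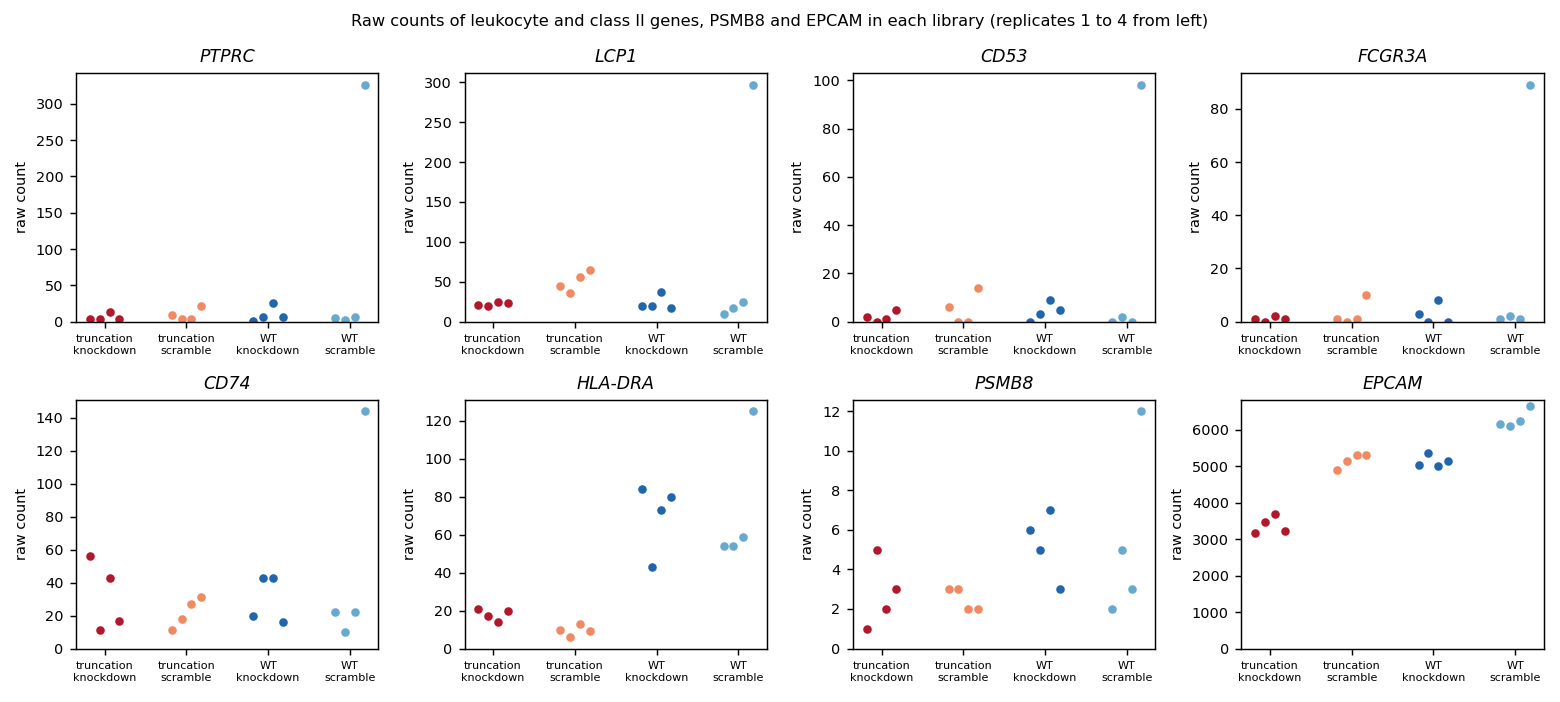
Raw counts (vertical axis, linear, from 0) of leukocyte and class II genes, PSMB8 and EPCAM in each of the 16 libraries, by group. WT scramble replicate 4 is the high point for PTPRC with 326 counts, against 1 to 25 in the other libraries, and for PSMB8 with 12, against 1 to 7.

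The class I chains and PA28 were abundant, and the catalytic immunoproteasome subunits were scarce. Per length, as TPM (length-scaled transcript abundance) over the union of exons, WT scramble cells held 187 ± 4.32 TPM of PSME1, 166 ± 6.92 of B2M, 145 ± 4.84 of HLA-B, 90.1 ± 2.08 of PSME2 and 43.4 ± 1.09 of TAP1 (SD, n = 4). They held 13.7 ± 0.178 TPM of TAP2, 8.39 ± 0.814 of PSMB9, 1.86 ± 0.175 of PSMB10 and 0.219 ± 0.174 of PSMB8, and each step in this order was larger than the SDs of its neighbours added together. The order depends on the lengths used, which were 6079 bases for B2M, 3051 for HLA-B and 1781 for PSME1. An exon union can be longer than the transcripts expressed. In CPM, B2M led in these cells with 292 ± 16.5, before HLA-B with 128 ± 8.15 and PSME1 with 96.2 ± 2.60 (SD, n = 4). The order differed elsewhere: in truncation knockdown cells B2M led with 173 ± 13.7 TPM, PSME1 (131 ± 6.52) and HLA-B (128 ± 8.65) lay within their spread, and PSMB9 with 7.64 ± 0.657 TPM stood above TAP2 with 6.06 ± 0.526 (SD, n = 4). In CPM, TAP2 with 10.3 ± 0.944 stood above PSMB9 with 6.24 ± 0.453 there (SD, n = 4). In truncation scramble cells PSME1 with 199.9 ± 5.38 TPM and B2M with 189 ± 8.04 lay within their spread, and in WT knockdown cells so did HLA-B with 167 ± 15.2 and B2M with 151 ± 13.5 (SD, n = 4). The constitutive catalytic subunits were far higher, with PSMB6 at 1138 ± 80.9, 1026 ± 22.1, 459 ± 23.1 and 409 ± 14 TPM in truncation knockdown, truncation scramble, WT knockdown and WT scramble cells (SD, n = 4).

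**Figure D2:**
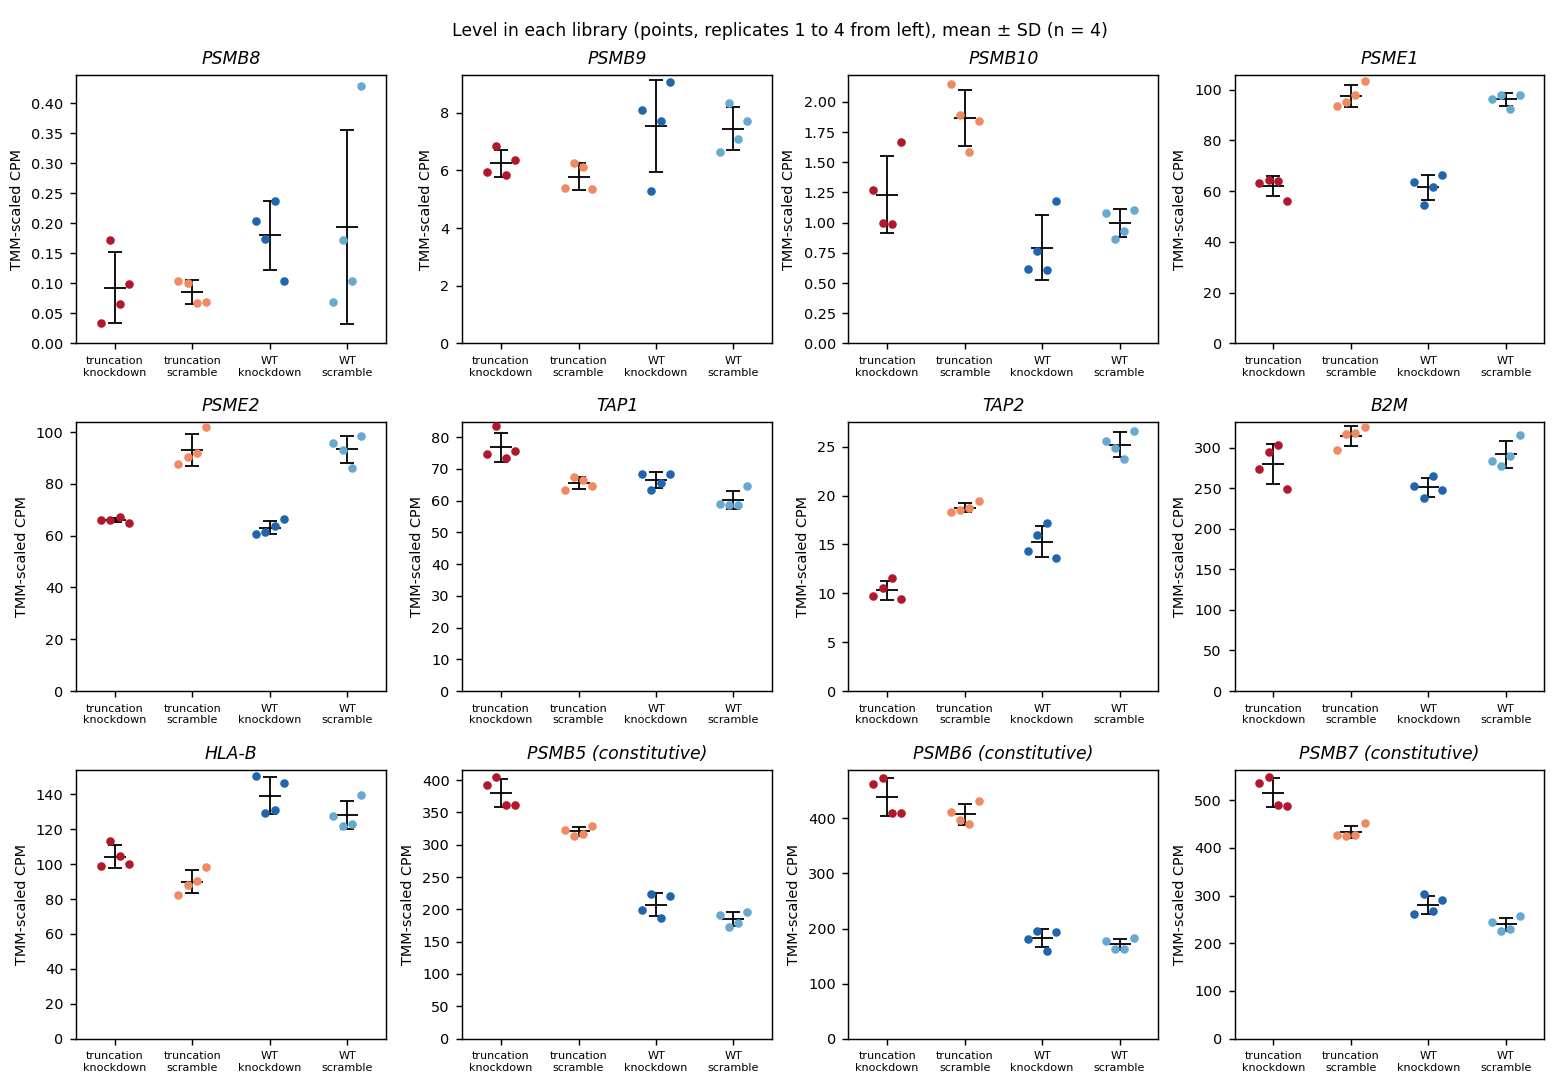
TMM-scaled CPM (vertical axes, linear, from 0) of the 9 genes and of PSMB5, PSMB6 and PSMB7 in every library, with the mean and SD of 4 libraries per group. PSME1, PSME2 and TAP2 sit lower in both knockdown groups than in both scramble groups, and PSMB6 sits at 389 CPM or more in truncation libraries and 195 or less in WT libraries.

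Of the 9 genes, 8 passed the filter on low counts and were tested, and PSMB8 was not. Calls were made with edgeR's quasi-likelihood test at a Benjamini-Hochberg adjusted p below 0.05 over 17104 genes. With knockdown against scramble in WT cells, 1 of the 8 was higher (TAP1) and 4 were lower (PSME1, PSME2, TAP2 and B2M), when 25.2% of all genes tested were higher and 25.1% lower. In truncation cells the knockdown left 2 higher (TAP1 and HLA-B) and 5 lower (the same 4 and PSMB10), against 28.7% higher and 28.1% lower of all genes. The median log2 fold change of the 8 was -0.27 in WT and -0.33 in truncation cells, beside 0.01 and 0.02 over all genes tested. With truncation against WT in scramble cells 1 was higher (PSMB10) and 3 were lower (PSMB9, TAP2 and HLA-B), against 21.6% and 22.4% of all genes, and the median of the 8 was 0.01 beside -0.02. In knockdown cells 3 were higher in truncation (PSMB10, TAP1 and B2M) and 2 lower (TAP2 and HLA-B), against 21.9% and 23.6%, and the median was 0.04 beside 0.00 over all genes tested. Comparisons that use the same group share its libraries and are not independent. In bulk RNA, fewer cells with a transcript and less transcript per cell cannot be told apart.

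**Figure D3:**
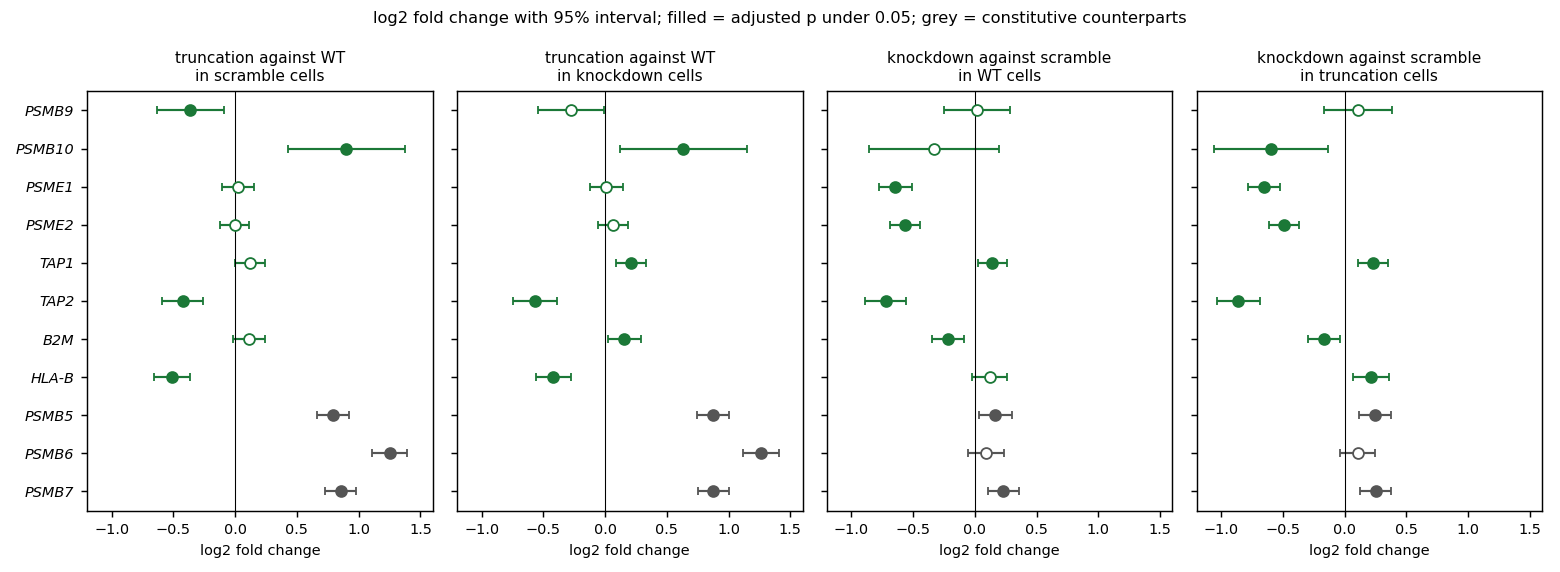
Log2 fold changes with 95% intervals (horizontal axes) of the 8 tested genes and, in grey, of PSMB5, PSMB6 and PSMB7 in the 4 comparisons of 2 groups; filled points have an adjusted p under 0.05. TAP2 lies below 0 in all 4 panels, between -0.86 and -0.43, and PSME1 and PSME2 lie below 0 in the knockdown panels and near 0 in the truncation panels.

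The PA28 subunits were lower after OTUD5 knockdown in both genotypes and did not pass the test for truncation. PSME1 (ENSG00000092010, chr14:24136158-24138967) had 63.3, 64.4, 64.1 and 56.1 CPM in truncation knockdown libraries, against 93.6, 95.05, 98.1 and 104 in truncation scramble libraries. In WT cells PSME1 had 63.7, 54.7, 61.5 and 66.3 CPM in knockdown libraries, against 96.5, 97.8, 92.4 and 98.0 in scramble libraries. No knockdown library reached the lowest scramble library, in either genotype. The log2 fold change of PSME1 was -0.65 ± 0.06 in truncation cells (edgeR adjusted p = 1.5e-09) and -0.64 ± 0.06 in WT cells (adjusted p = 3.98e-09). PSME2 (ENSG00000100911, chr14:24143362-24147570), its partner in the heptameric ring, had 66.2, 65.9, 67.03 and 64.9 CPM in truncation knockdown libraries, against 87.8, 90.5, 92.0 and 102 in truncation scramble libraries. It had 60.7, 61.6, 63.5 and 66.3 CPM in WT knockdown libraries, against 95.9, 92.9, 86.3 and 98.5 in WT scramble libraries, so that the groups again did not overlap. PSME2 fell to 0.710 times its truncation scramble level (adjusted p = 4.26e-08) and to 0.675 times its WT scramble level (adjusted p = 8.32e-09). For truncation against WT, PSME1 differed by 0.02 ± 0.06 log2 units in scramble cells (95% interval -0.11 to 0.15) and by 0.01 ± 0.06 in knockdown cells (-0.12 to 0.14). The intervals for PSME2 ran from -0.13 to 0.12 in scramble and from -0.06 to 0.19 in knockdown cells.

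The transporter subunits moved in opposite directions wherever both were called. TAP2 (ENSG00000204267, chr6:32821833-32838780) had 9.71, 10.5, 11.6 and 9.46 CPM in truncation knockdown libraries, against 18.3, 18.6, 18.7 and 19.4 in truncation scramble libraries. In WT cells TAP2 had 14.4, 15.9, 17.2 and 13.7 CPM in knockdown libraries, against 25.6, 24.9, 23.7 and 26.7 in scramble libraries. The 4 groups did not overlap, and their order from low to high was truncation knockdown, WT knockdown, truncation scramble and WT scramble. The knockdown lowered TAP2 by a log2 fold change of -0.86 ± 0.08 in truncation cells (edgeR adjusted p = 1.48e-09) and -0.72 ± 0.08 in WT cells (adjusted p = 2.47e-08). Truncation against WT gave -0.43 ± 0.08 in scramble cells (adjusted p = 5.63e-05) and -0.57 ± 0.08 in knockdown cells (adjusted p = 2.99e-06). With both changes TAP2 stood at 0.409 times its WT scramble level (adjusted p = 3.29e-13). Of the exon bases of TAP2, 32.3% are also annotated to a gene on the same strand, AL669918.1, which had 0 counts in every library.

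TAP1 (ENSG00000168394, chr6:32845209-32853978) was higher in 3 of the 4 comparisons of 2 groups, in each of which TAP2 was lower. It had 74.8, 83.5, 73.3 and 75.7 CPM in truncation knockdown libraries, against 63.5, 67.4, 66.5 and 64.7 in truncation scramble libraries. It had 68.5, 63.3, 65.7 and 68.4 CPM in WT knockdown libraries, against 59.1, 58.5, 58.7 and 64.7 in WT scramble libraries. The truncation knockdown libraries stood above all others, and the WT groups overlapped through WT scramble replicate 4, the library with leukocyte transcripts. The knockdown raised TAP1 by a log2 fold change of 0.23 ± 0.05 in truncation cells (edgeR adjusted p = 0.00094) and 0.14 ± 0.06 in WT cells (adjusted p = 0.0348). The call in WT cells was lost in 8 of the 16 fits made without 1 library each (adjusted p up to 0.105), namely truncation scramble replicates 1, 2 and 3, WT knockdown replicates 1 and 4 or WT scramble replicates 1, 2 and 3. It was also lost without the low-count filter (adjusted p = 0.177), with only the libraries compared and with limma. Truncation against WT gave 0.21 ± 0.05 in knockdown cells (adjusted p = 0.00301) and 0.12 ± 0.06 in scramble cells (adjusted p = 0.077), where leaving out WT scramble replicate 4 gave 0.16 and adjusted p = 0.034. The call was also made without truncation knockdown replicate 2 (adjusted p = 0.0488), by DESeq2 (0.0319) and with only the libraries compared (0.0356). Both changes together gave 0.35 ± 0.06 (adjusted p = 4.24e-06), a level 1.28 times that of WT scramble cells.

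The class I chains shifted with opposite signs wherever both were called. HLA-B (ENSG00000234745, chr6:31269491-31357188) was lower in truncation than in WT cells. It had 98.8, 113, 105 and 99.97 CPM in truncation knockdown libraries, against 151, 129, 131 and 146 in WT knockdown libraries. It had 82.5, 88.0, 90.4 and 98.5 CPM in truncation scramble libraries, against 127, 122, 123 and 139.9 in WT scramble libraries. Every truncation library lay below every WT library. The log2 fold change was -0.42 ± 0.07 in knockdown cells (edgeR adjusted p = 9.95e-06) and -0.51 ± 0.07 in scramble cells (adjusted p = 7.17e-07). Knockdown against scramble raised HLA-B by 0.21 ± 0.07 log2 units in truncation cells (adjusted p = 0.00758), a call lost without truncation knockdown replicate 2 or truncation scramble replicate 1 (adjusted p up to 0.0786). In WT cells the difference was 0.12 ± 0.07 (adjusted p = 0.127), and without WT scramble replicate 4 it was 0.17 (adjusted p = 0.0478). Reads of HLA-B and of other class I heavy chain genes can be assigned to one another because the genes are nearly alike, and the reference may not carry this line's alleles.

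B2M (ENSG00000166710, chr15:44711487-44718877) was lower after knockdown. It had 273, 295, 303 and 248.7 CPM in truncation knockdown libraries, against 297, 317, 319 and 326 in truncation scramble libraries. It had 253, 238, 266 and 248 CPM in WT knockdown libraries, against 284, 278, 290.0 and 316 in WT scramble libraries. The WT groups did not overlap and the truncation groups did. The log2 fold change was -0.17 ± 0.06 in truncation cells (edgeR adjusted p = 0.0181) and -0.22 ± 0.06 in WT cells (adjusted p = 0.00377). With upper-quartile scaling the call in truncation cells was lost (-0.11, adjusted p = 0.101). Truncation against WT raised B2M by 0.16 ± 0.06 log2 units in knockdown cells (adjusted p = 0.034), a call lost in 7 of the 16 fits without 1 library each (adjusted p up to 0.167). Those libraries were truncation knockdown replicates 2 and 3, WT knockdown replicates 1, 2 and 4, and truncation scramble replicates 2 and 3. The call was also lost without the low-count filter (adjusted p = 0.087), with only the libraries compared (0.0767) and with limma (0.0735). In scramble cells the difference was 0.11 ± 0.06 (adjusted p = 0.143), and with only the libraries compared it was called (adjusted p = 0.0446).

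The catalytic subunits were all scarce and did not move together. PSMB9 (ENSG00000240065, chr6:32844136-32859585), the immuno counterpart of PSMB6, had 5.93, 6.83, 5.84 and 6.36 CPM in truncation knockdown libraries, against 8.10, 5.30, 7.71 and 9.05 in WT knockdown libraries. It had 5.396, 6.24, 6.13 and 5.36 CPM in truncation scramble libraries, against 6.63, 8.35, 7.10 and 7.71 in WT scramble libraries. The scramble groups did not overlap, and among knockdown libraries WT replicate 2 lay below all 4 truncation libraries. Truncation against WT gave -0.36 ± 0.13 log2 units in scramble cells (edgeR adjusted p = 0.0202), a call lost without truncation scramble replicate 1 or 4 or WT scramble replicate 2 (adjusted p up to 0.0757). In knockdown cells it gave -0.27 ± 0.12 (adjusted p = 0.0737), and -0.41 (adjusted p = 0.00144) without WT knockdown replicate 2. Knockdown against scramble differed by 0.11 log2 units in truncation cells (95% interval -0.17 to 0.38) and by 0.02 in WT cells (-0.25 to 0.28). The annotated span of PSMB9 encloses TAP1 on the other strand, but the 2 genes share no annotated exon bases. Of the exon bases of PSMB9, 4.52% lie opposite PSMB8, which had 1 to 12 counts per library. Another 5.66% are shared on the same strand with PSMB8-AS1, which had 0 to 9. The strand setting of the counting is not given in the sources used here, so reads from the bases opposite PSMB8 cannot be told apart.

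PSMB10 (ENSG00000205220, chr16:67934502-67937087), the counterpart of PSMB7, was higher in truncation cells. It had 2.14, 1.89, 1.58 and 1.85 CPM in truncation scramble libraries, against 1.08, 0.866, 0.935 and 1.11 in WT scramble libraries. It had 1.27, 0.995, 0.991 and 1.67 CPM in truncation knockdown libraries, against 0.612, 0.767, 0.611 and 1.18 in WT knockdown libraries. The scramble groups did not overlap and the knockdown groups did. The log2 fold change was 0.90 ± 0.22 in scramble cells (edgeR adjusted p = 0.00165) and 0.64 ± 0.24 in knockdown cells (adjusted p = 0.03), the second lost without truncation knockdown replicate 1 or 4 or WT knockdown replicate 1, 2 or 3 (adjusted p up to 0.148). It was also lost with DESeq2 (0.0584), without the low-count filter (0.0802) and with only the libraries compared (0.0667). Knockdown against scramble gave -0.60 ± 0.21 in truncation cells (adjusted p = 0.0188), lost without truncation knockdown replicate 2 or 3 or truncation scramble replicate 1 (adjusted p up to 0.058), and -0.33 ± 0.24 in WT cells (adjusted p = 0.271). Of its exon bases, 34.8% are shared with AC040162.1 on the same strand, which had 41 to 93 counts per library, so the split of reads between them is uncertain. PSMB8 (ENSG00000204264, chr6:32840717-32844703), the counterpart of PSMB5, had 11 counts over the 4 truncation knockdown libraries, 10 over truncation scramble, 21 over WT knockdown and 22 over WT scramble. Of the WT scramble counts, 12 came from replicate 4, and 20.6% of the exon bases of PSMB8 lie opposite PSMB8-AS1, which had 0 to 9 counts.

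Set against the constitutive subunit that each replaces, the immuno subunits took different positions. The log2 ratio of PSMB9 to PSMB6 was -6.12 ± 0.12 in truncation knockdown and -4.61 ± 0.39 in WT knockdown cells, and -6.12 ± 0.18 in truncation scramble and -4.51 ± 0.19 in WT scramble cells (SD, n = 4 each). The truncation libraries lay below all WT libraries, by 1.51 log2 units in knockdown and 1.61 in scramble cells. Each difference had the smallest p that an exact permutation test of 4 against 4 can give, 0.0286 two-sided. After adjustment over 12 such tests it was 0.0686, so neither passed. At that smallest p the adjusted value depends only on how many of the 12 tests reach it. Not passing therefore does not show that the ratios were alike. PSMB6 itself rose in truncation cells, by 1.27 ± 0.07 log2 units in knockdown cells (edgeR adjusted p = 8.03e-14) and 1.25 ± 0.07 in scramble cells (adjusted p = 9.41e-14). Beside it, PSMB9 differed by -0.27 and -0.36 log2 units. The log2 ratio of PSMB8 to PSMB5 was lower in truncation by 1.54 in knockdown and 1.39 in scramble cells, with the same exact p of 0.0286 and adjusted p of 0.0686, on 1 to 12 counts of PSMB8 per library. The ratio of PSMB10 to PSMB7 differed between truncation and WT by -0.27 in knockdown cells (exact permutation p = 0.343) and by 0.00 in scramble cells (exact permutation p = 0.943), since PSMB7 rose by 0.88 and 0.86 log2 units. Knockdown against scramble moved the PSMB10 ratio by -0.85 in truncation cells (exact permutation p = 0.0286, adjusted p = 0.0686) and by -0.58 in WT cells (exact permutation p = 0.0571, adjusted p = 0.114).

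**Figure D4:**
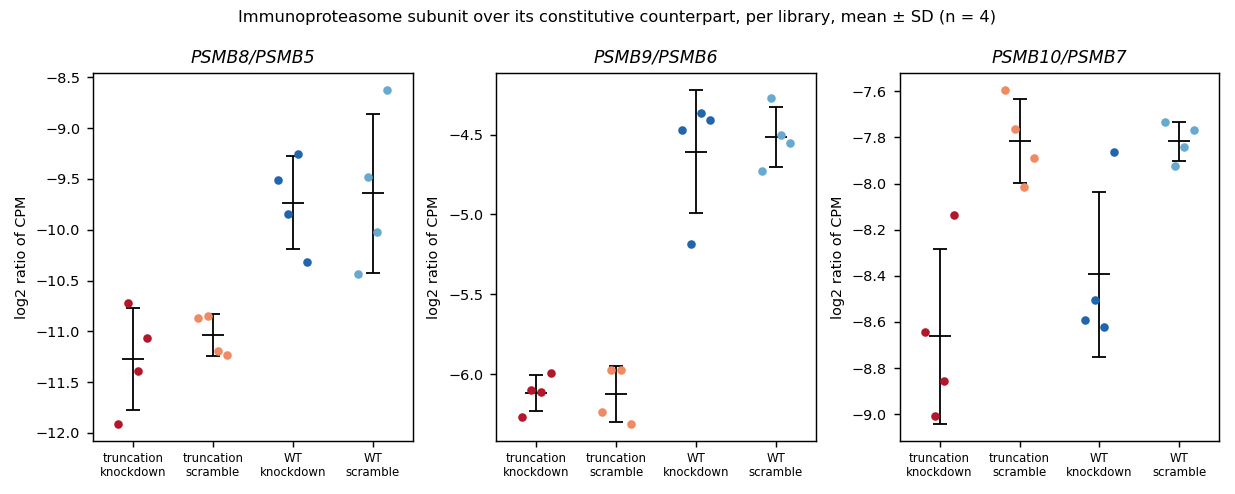
Log2 ratio of CPM of each immunoproteasome subunit to its constitutive counterpart (vertical axes, which do not start at 0) in each library, with the mean and SD of 4 libraries per group. For PSMB9 over PSMB6 the truncation groups average -6.12 and the WT groups -4.61 (knockdown) and -4.51 (scramble), whereas PSMB10 over PSMB7 averages -7.82 in both scramble groups.

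The rest of the 20S core moved as a block with truncation, and the other regulators partly so. Counts for this and the following lists stand beside these shares of all genes tested. With truncation 21.9% were higher and 23.6% lower in knockdown cells, and 21.6% and 22.4% in scramble cells. With knockdown 28.7% were higher and 28.1% lower in truncation cells, and 25.2% and 25.1% in WT cells. No list was tested as a set. All 14 constitutive 20S genes were higher in truncation than in WT cells, in knockdown cells (median log2 fold change 0.86) and in scramble cells (median 0.79). In scramble cells the largest changes were PSMB6, PSMB4 (1.10 ± 0.06), PSMB3 (1.00 ± 0.06) and PSMB2 (0.90 ± 0.05). After knockdown 6 of 14 were higher and 2 lower in truncation cells, and 4 higher and 2 lower in WT cells, with PSMB3 falling by 0.66 and 0.60 log2 units and PSMB2 by 0.40 and 0.28. PSMA2 had the largest rise in truncation cells, 0.63, with means of 6.40 CPM after knockdown and 4.15 after scramble. In WT cells its means were 2.42 and 2.60 CPM, and the largest rise was that of PSMA5, 0.25. The largest difference between the effects was that of PSMA2, 0.73, and edgeR called 1 of the 14 for that difference. Among 4 other regulators, PSME4, the large PA200 activator, rose with truncation by 0.91 ± 0.06 in knockdown and 0.73 ± 0.06 in scramble cells. POMP, the maturation factor of new 20S particles, rose with truncation by 0.72 ± 0.07 in knockdown and 0.67 ± 0.07 in scramble cells. PSME3, the nuclear homologue of PSME1 and PSME2, fell with knockdown by 0.48 ± 0.05 in truncation and 0.28 ± 0.05 in WT cells.

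Beyond HLA-B, 2 of 4 other class I heavy chain genes were lower and 1 was higher in truncation cells, in knockdown and in scramble cells alike, and edgeR called 0 of the 4 for the knockdown in either genotype, with 0 at an unadjusted p under 0.05. HLA-F fell with truncation by 0.55 ± 0.11 log2 units in knockdown and 0.53 ± 0.11 in scramble cells, and HLA-E by 0.21 ± 0.06 and 0.28 ± 0.06. HLA-C was higher in truncation by 0.20 ± 0.06 in knockdown and 0.19 ± 0.06 in scramble cells, opposite to HLA-B. All of these had edgeR adjusted p of 0.012 or less.

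Of the 5 peptide loading genes, the largest change with knockdown in both genotypes was in TAPBP. TAPBP, or tapasin, which bridges TAP and the empty class I molecule, had 76.4, 79.3, 87.0 and 81.4 CPM in truncation knockdown libraries, against 180.5, 173, 181 and 182 in truncation scramble libraries. It had 98.6, 74.7, 103 and 97.4 CPM in WT knockdown libraries, against 178, 168, 167 and 185 in WT scramble libraries. No knockdown library came near a scramble library, and the log2 fold change was -1.15 ± 0.07 in truncation cells (edgeR adjusted p = 1.71e-12) and -0.90 ± 0.07 in WT cells (adjusted p = 2.69e-10). Of 5 loading genes, knockdown left 3 lower and 2 higher in truncation cells and 3 lower and 1 higher in WT cells. CALR, the chaperone calreticulin, fell by 0.66 ± 0.06 in truncation and 0.38 ± 0.06 in WT cells, and the difference between these effects was itself called (-0.28 ± 0.08, adjusted p = 0.0347). PDIA3, the thiol oxidoreductase of the loading complex, fell by 0.37 ± 0.06 and 0.19 ± 0.06. CANX, the chaperone calnexin, rose by 0.15 ± 0.05 and 0.30 ± 0.05. TAPBPL, a tapasin homologue, averaged 2.14 ± 0.657 CPM in truncation knockdown and 1.15 ± 0.405 CPM in truncation scramble cells (SD, n = 4 each), a rise of 0.90 ± 0.24 log2 units. With truncation against WT none of the 5 was called in scramble cells, by edgeR at an adjusted p under 0.05, and 4 were lower and 1 higher in knockdown cells. Among 7 peptidases that trim class I ligands, 3 were higher and 2 lower with truncation in both knockdown and scramble cells. Of all genes tested, 21.9% were higher and 23.6% lower in knockdown cells, and 21.6% and 22.4% in scramble cells. The largest falls were those of THOP1 in knockdown cells, -0.39, and of LNPEP in scramble cells, -0.35. ERAP2, an endoplasmic reticulum aminopeptidase, rose with truncation by 0.71 ± 0.15 in knockdown and 0.99 ± 0.15 in scramble cells, and BLMH by 0.83 ± 0.05 and 0.80 ± 0.05.

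Of 10 transcription factors of class I genes, 3 were higher and 3 lower with truncation in knockdown cells, and 5 higher and 3 lower in scramble cells. The shares of all genes tested were 21.9% higher and 23.6% lower in knockdown cells, and 21.6% and 22.4% in scramble cells. NLRC5, the class I transactivator, had 5.86, 6.35, 5.65 and 6.16 CPM in truncation knockdown, 7.82, 7.90, 8.39 and 7.35 in truncation scramble, 9.29, 6.94, 7.81 and 8.95 in WT knockdown and 9.88, 11.5, 10.2 and 12.96 in WT scramble libraries. It fell with truncation by 0.46 ± 0.10 log2 units in knockdown and 0.50 ± 0.10 in scramble cells, and with knockdown by 0.39 ± 0.10 in truncation and 0.43 ± 0.10 in WT cells. Of the 3 subunits of the RFX complex with which it acts, RFXANK fell with knockdown by 0.84 ± 0.08 in truncation and 0.57 ± 0.08 in WT cells and RFXAP by 0.59 ± 0.16 and 0.90 ± 0.15. RFX5 fell by 0.24 ± 0.07 in truncation cells, and in WT cells its difference was -0.12 ± 0.07 (edgeR adjusted p = 0.144), with overlapping libraries. IRF2 rose with knockdown by 0.54 ± 0.07 in truncation cells and did not pass in WT cells, and the difference between the effects was called (0.55 ± 0.10, edgeR adjusted p = 0.00207). With truncation IRF2 had the largest rise of the list, 0.80 log2 units in knockdown and 0.25 in scramble cells. Its means were 23.0 CPM in truncation knockdown and 13.2 in WT knockdown cells. RFXAP had the largest fall with truncation in scramble cells, at -0.65.

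None of 8 interferon genes passed the count filter: IFNG had at most 1 count in any library, IFNB1 at most 1 and IFNE at most 19. Of 13 interferon receptor and signalling genes, 4 were higher and 1 lower with truncation in knockdown cells, and 5 higher and 0 lower in scramble cells. IFNGR2, a chain of the interferon gamma receptor, rose with truncation by 0.50 ± 0.07 log2 units in knockdown and 0.28 ± 0.07 in scramble cells. The largest rise in scramble cells was that of SOCS1, 0.56, with means of 6.95 CPM in truncation and 4.71 in WT cells. With knockdown 4 of the 13 were higher and 4 lower in truncation cells, and 5 higher and 3 lower in WT cells. In truncation cells the largest of these changes were 0.73 for SOCS3 and -0.72 for TYK2. Of 24 tested interferon-induced genes outside the set, 15 were higher and 1 lower with truncation in knockdown cells (median log2 fold change 0.50), and 17 higher and 1 lower in scramble cells (median 0.52). The largest were genes with few counts, such as IFI44 with 65, 89, 108 and 58 counts in truncation knockdown, 182, 194, 188 and 205 in truncation scramble, 6, 11, 4 and 3 in WT knockdown and 11, 3, 3 and 43 in WT scramble libraries. The highest WT count of IFI44 was in WT scramble replicate 4, whose leukocyte transcripts moved with it, and their part in the result was not tested. After knockdown 4 of the 24 were higher and 9 lower in truncation cells and 5 higher and 6 lower in WT cells. BST2, the membrane restriction factor tetherin, fell by 2.41 ± 0.29 in truncation and 1.38 ± 0.29 in WT cells. BST2 too had few counts, with means of 0.418 CPM after knockdown and 2.25 after scramble in truncation cells. In WT cells the means were 0.557 and 1.46 CPM. Without WT scramble replicate 4, truncation against WT in scramble cells left 18 of these genes higher and 1 lower.

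NF-kB genes were higher with truncation in 4 of 7 cases in knockdown cells and 5 of 7 in scramble cells, with 0 lower in either. NFKBIA, the inhibitor that NF-kB itself induces, rose by 0.69 ± 0.06 log2 units in both knockdown and scramble cells, and RELB by 0.65 ± 0.08 and 0.64 ± 0.08. The MHC class II list went the other way: 7 of 12 genes were lower with truncation in knockdown cells and 9 of 12 in scramble cells, with 0 higher in either. These genes had few counts, and HLA-DRA had 21, 17, 14 and 20 in truncation knockdown, 10, 6, 13 and 9 in truncation scramble, 84, 43, 73 and 80 in WT knockdown and 54, 54, 59 and 125 in WT scramble libraries. The value of 125 was again in WT scramble replicate 4, and without that library 6 class II genes were lower in scramble cells and 0 higher.

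**Figure D5:**
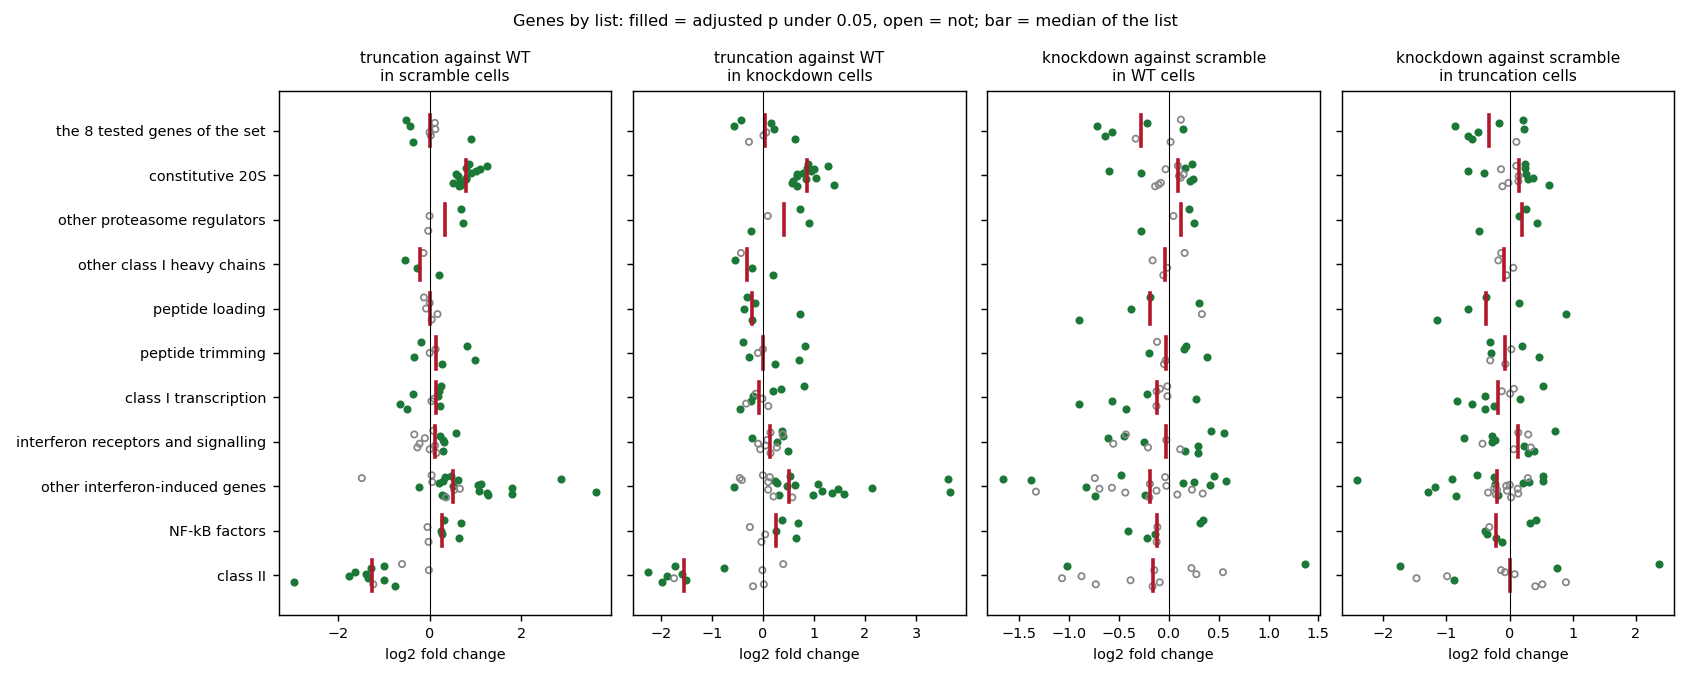
Log2 fold changes (horizontal axes, of different range per panel) of the tested genes of each list in the 4 comparisons of 2 groups; filled points have an adjusted p under 0.05 and the bar is the median of the list. The constitutive 20S genes all lie above 0 in the truncation panels with medians of 0.79 and 0.86, whereas the 8 tested genes of the set lie on both sides of 0.

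The difference between the knockdown effects in truncation and in WT cells was not called for any of the 8 genes by edgeR, when 5.69% of all genes tested were called in either direction. None of the 8 had an unadjusted p under 0.05, and DESeq2 and limma also called 0. The estimates ran from -0.27 for PSMB10 (95% interval -0.97 to 0.44) to 0.09 for HLA-B (-0.11 to 0.29), and that of TAP2 was -0.14 (-0.38 to 0.10). The narrowest intervals, those of TAP1 (-0.08 to 0.26) and PSME2 (-0.10 to 0.24), still allow differences of a size similar to the TAP1 effects. Against WT scramble cells, cells with both changes had 1 of the 8 higher (TAP1) and 4 lower (PSME1, PSME2, TAP2 and HLA-B), when 33.2% of all genes tested were higher and 33.5% lower. The median log2 fold change of the 8 was -0.28 there, beside 0.00 over all genes tested.

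The genes whose log2 CPM followed each member most closely were sought among 12317 candidates over the 16 libraries, by Pearson's r. The libraries fall into 4 groups, so these values follow mostly the differences between groups and are descriptions. PSME1 was followed by ADIPOR1 (0.989), GSS (0.989) and IFITM2 (0.987), and PSME2 by FHOD1 (0.981), KAT8 (0.980) and TINAGL1 (0.978). TAP2 was followed by HNRNPH3 (0.981) and SPIN4 (0.980), and TAP1 by KDELR3 (0.952), CPTP (0.937) and FBXW4 (0.935). HLA-B was followed by VOPP1 (0.967), HADH (0.963) and PRSS8 (0.959), and B2M by ZNG1F (0.912), GCA (0.909) and RARS2 (0.906). PSMB10 was followed by DVL3 (0.954), SYDE1 (0.935) and FIZ1 (0.935), and PSMB9 by IRF5 (0.918), SEMA4B (0.885) and JUNB (0.874). No member was among the 3 closest genes of another, but PSME1 and PSME2 followed each other at 0.977, beside 0.978 for TINAGL1 with PSME2. Between other members the highest r was 0.801, for PSME1 and TAP2, and the lowest was -0.889, for TAP1 and TAP2.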

How the data were processed

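The deposited files were raw counts by Ensembl gene ID, the same counts after a filter, and signal values, namely CPM scaled by TMM. Per the submitters' processing notes, STAR 2.7.3a, DESeq2, edgeR and limma were used with hg38. The sources used here give neither their roles nor the counting program and its strand option. Recomputing CPM from the filtered counts gave the deposited signal to a relative difference of 5e-15. The 60668 genes of the raw table were filtered with edgeR's filterByExpr to 17104, TMM-scaled and modelled by quasi-likelihood in edgeR 4.0.16 under R 4.3.3, each group having its own coefficient, 12 residual degrees of freedom, two-sided, Benjamini-Hochberg over all tested genes. The fit was tested on simulated data with known changes. Ratios of immuno to constitutive subunits used log2 CPM with a prior count of 2 and an exact permutation test over libraries.

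TPM used exon unions of GENCODE v29 (GRCh38), whose release may differ from the one counted. Replicates are labelled biological, but whether they were separate cultures is not stated, so p-values reflect library-to-library spread. Replicate pairs differed by more than counting noise, with chi-square per degree of freedom of 2.75 to 20.8. The members and lists were chosen with earlier results of these data known. Named genes were the members, OTUD5, PSMD4, PSMB5, PSMB6 and PSMB7, up to 4 called genes with the largest changes from each list described, and the 3 most similar genes per member; a few genes under this rule are not reported here and were left out of the lists counted. Single interferon genes, cell markers and overlapping genes were named after their values were seen. Alternatives were RLE and upper-quartile scaling, no low-count filter, DESeq2 1.42.0, limma 3.58.1 on the deposited CPM as log2(CPM + 1), only the libraries compared, a replicate block, and each library left out.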

Additional observations from a re-analysis of the deposited data

Results flagged for a closer look

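Within groups of 4 libraries, Dixon's gap test was applied to 36 groups of values of the members at its 95% critical value, and 2 exceeded it. Chance gives about 1 in 20. PSME1 in truncation knockdown replicate 4 stood at 56.08 CPM, below the other 3 libraries of its group at 63.31 to 64.43 CPM. It stood on the same side as the knockdown effect, and the call for PSME1 in truncation cells held in all 16 fits that left out 1 library. TAP1 in WT scramble replicate 4 stood at 64.65 CPM, above the other 3 libraries of its group at 58.53 to 59.06 CPM. That library also held the leukocyte transcripts, with 326 counts of PTPRC against 1 to 25 elsewhere, and their part in the TAP1 value was not tested.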

How the results depend on the processing

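The direction and call of PSME1, PSME2 and TAP2 for knockdown, of TAP2 and HLA-B for truncation and of PSMB10 for truncation in scramble cells held under every alternative run. For truncation against WT in knockdown cells, the called members came to 3 (1 higher, 2 lower) without the low-count filter and to 3 (1 higher, 2 lower) with only the libraries compared, in place of 5. With 1 library left out, called members ranged from 3 to 5 for truncation against WT in knockdown cells, 3 to 5 in scramble cells, 5 to 7 for knockdown in truncation cells, 4 to 6 in WT cells, 5 to 6 for both changes, and 0 to 0 for the difference of effects. A replicate block left all counts of called members as they were, at 5, 4, 7, 5, 5 and 0 in that order. Deviations of same-numbered replicates from their group means correlated weakly, at -0.0837 to 0.164. Replicate 3 correlated best with its own number in every comparison of 2 groups, at 0.036 to 0.147. Replicate 4 did so only for truncation against WT in scramble cells (0.164), and replicates 1 and 2 in no comparison. What the replicate 3 libraries may have shared was not tested.

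On log2(CPM + 1), 9 of the 12 differences in ratios of immuno to constitutive subunits passed the exact permutation test, each with an adjusted p of 0.0381. They were for PSMB8 to PSMB5 -0.98 (truncation in knockdown cells), -0.92 (truncation in scramble cells) and -0.23 (knockdown in truncation cells), and for PSMB9 to PSMB6 -1.48 and -1.56 for truncation in knockdown and scramble cells. For PSMB10 to PSMB7 they were -0.56 and -0.34 for truncation in knockdown and scramble cells, the second of reversed sign, and -0.62 and -0.39 for knockdown in truncation and WT cells. PSMB9 to PSMB6 for knockdown in truncation cells reversed to -0.0095. The pseudocount of 1 exceeds the CPM of PSMB8 in all 16 libraries and that of PSMB10 in 7 of 16. With the prior count of 2, fewer of the 12 tests reached the smallest exact p, and the adjusted p at that value was 0.0686. The truncation differences of PSMB9 to PSMB6 were then -1.51 in knockdown and -1.61 in scramble cells. Passing on log2(CPM + 1) thus does not reflect a larger difference for that pair. With 1 library left out, PSMB8 to PSMB5 ranged from -1.73 to -1.33 and -1.66 to -1.06 for truncation in knockdown and scramble cells, -0.42 to -0.023 and -0.36 to 0.25 for knockdown in truncation and WT cells. PSMB9 to PSMB6 ranged, in the same order, from -1.70 to -1.43, -1.68 to -1.53, -0.058 to 0.056 and -0.17 to 0.099. PSMB10 to PSMB7 ranged from -0.44 to -0.090, -0.072 to 0.069, -1.02 to -0.73 and -0.76 to -0.50. Fits with 3 libraries against 4 cannot give an exact p under 0.0571.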
